A study of Mus musculus with 9 samples.

Results

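Gene expression in lung endothelial cells (ECs) of mice with breast cancer metastases was compared with that in ECs of healthy lungs, with control IgG given to both groups. The comparison took in all 6 arrays labelled with IgG, 3 per group, of the 9 arrays in the series, and all 18193 genes read by at least 1 probe set naming a single gene. The hosts were female NSG mice, an immunodeficient strain without T, B and NK cells. The metastatic mice, 6 to 8 weeks of age, received MDA-MB-231-LM2, a lung-tropic derivative of a human breast cancer cell line, through the tail vein and were treated with control IgG until the lungs were taken on day 21. Healthy mice were age-matched, received no cancer cells and were treated with the same IgG. ECs were sorted from whole lungs as CD31-positive cells that lacked the leukocyte markers CD45 and CD11b, the epithelial marker CD326, the mesenchymal markers CD140a and CD140b, and the GFP of the cancer cells. The sort thus pooled ECs lying next to metastases with those at a distance, and metastatic mice had been chosen for a similar tumor load by bioluminescence. The labels name the 3 arrays of a group biological replicates, and their small number limits the precision of every value.

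ECs of the resting lung are quiescent. They take part in clearing foreign and endogenous compounds from the blood, inactivate circulating peptides, pass hormone and vasoactive signals to the vessel wall, and deposit a matrix that keeps the vessel elastic. The description below starts from the genes that fell in metastatic lungs.

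Arrays of one group correlated at 0.991 to 0.994 and arrays of different groups at 0.977 to 0.985. The sort marker Pecam1 (CD31) was level, at 13.36 to 13.42 in healthy and 13.34 to 13.40 in metastatic arrays on the log2 scale of the arrays, and 16 of 17 measured pan-endothelial markers did not pass the test. Macrophage and monocyte markers rose beside the comparison despite the sort. Of 19 measured, 12 were higher and none lower, and their mean level was 8.15 to 8.46 in healthy and 9.07 to 9.18 in metastatic arrays. The excess of 3' over 5' signal of beta-actin was 0.609 to 0.62 in healthy and 0.488 to 0.555 in metastatic arrays. One secretory gene of the airway, Bpifa1, stood at 6.77 in healthy array 1 but at 9.81 and 10.77 in healthy arrays 2 and 3, against 6.68 to 6.93 in the metastatic arrays, and did not pass (adjusted p = 0.135). The part of these differences in the results below was not tested. In sorted cells measured in bulk, a smaller share of cells of one kind and less RNA per cell cannot be told apart.

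Repressed genes were fewer than induced ones and moved by less. By limma with Benjamini-Hochberg adjustment, 630 of 18193 genes (3.46%) were lower in metastatic ECs and 1010 (5.55%) were higher at adjusted p under 0.05. Of the repressed genes, 35 fell by more than 1 log2 unit and 1 by more than 2 units, whereas 250 and 37 induced genes passed these limits. The median difference was -0.51 among repressed and 0.62 among induced genes, and -0.0011 over all genes. Repressed genes were brighter in healthy ECs, where 75.9% of them lay above the median level of all genes, against 52.1% of the induced genes. The healthy level is itself a term of the difference, and dim genes have little room to fall. The calls thus favor such a contrast, and how much of it they account for was not tested. When each array was centred on its own median instead, 828 genes were lower and 863 higher, so that the repressed share of the calls changed from 38.4% to 49.0%. The called counts also fell when single arrays were left out. For repressed genes the count was 266 without healthy array 2, 278 without healthy array 3, 309 and 366 without metastatic arrays 1 and 2, and 357 without healthy array 1. For induced genes it was 603 and 651 without healthy arrays 2 and 3, and 626 without metastatic array 1.

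**Figure D1:**
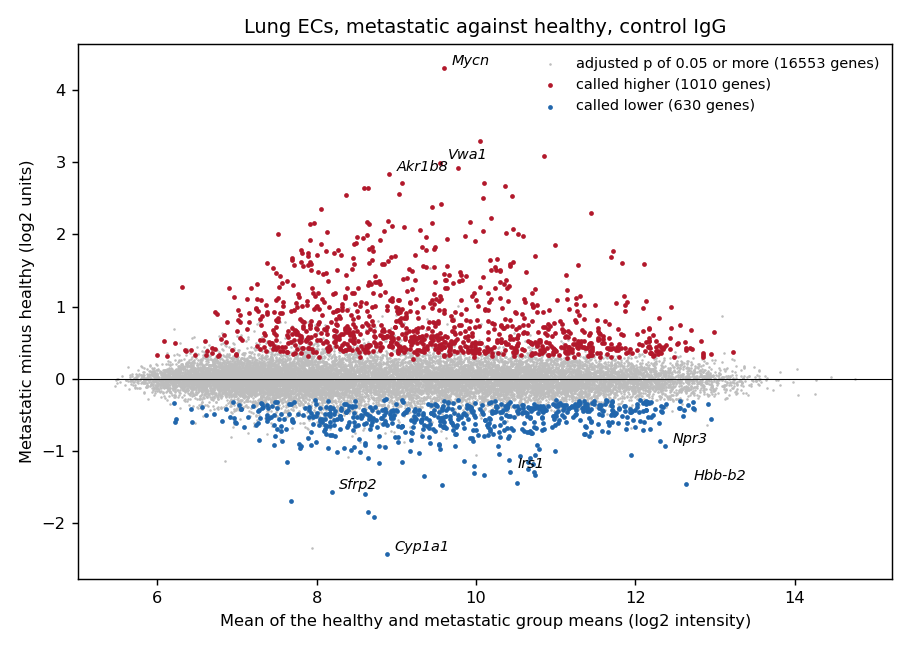
Each point is 1 of 18193 genes, placed by the mean of both group means (x axis, log2 intensity) and by the metastatic minus healthy difference (y axis, log2 units), in blue for the 630 genes called lower, in red for the 1010 called higher and in gray for the rest. The induced genes reach 4.30 with Mycn, while the repressed genes end at -2.44 with Cyp1a1 with Hbb-b2 at -1.45 among the bright genes.

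The most repressed gene was Cyp1a1, a cytochrome P450 that oxidizes polycyclic compounds. It stood at 9.75, 10.47 and 10.07 in the healthy and at 7.55, 7.86 and 7.58 in the metastatic arrays, a 5.41-fold lower level (log2 difference -2.44 ± 0.17, SE, n = 3 arrays per group, adjusted p = 0.000176). The highest metastatic array thus lay well below the lowest healthy one. Ppp2r2c, a regulatory subunit of a protein phosphatase, read 9.45, 10.01 and 9.60 in healthy and 7.76, 7.75 and 7.78 in metastatic ECs. Slitrk6, a membrane protein that guides neurite growth, read 9.78, 9.29 and 9.64 against 8.01, 7.38 and 7.81. Neither gene overlapped between groups. This held for all 630 repressed genes, so it adds nothing to a call, and the share over all genes was not counted. The 3 metastatic values of Ppp2r2c were nearly the same.

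Several of the most repressed genes encode secreted or signaling proteins. Sfrp2, a secreted binder of Wnt ligands, read 8.69, 9.15 and 9.11 in healthy and 7.58, 7.04 and 7.60 in metastatic ECs (2.98-fold lower, adjusted p = 0.0015). Wif1, another secreted Wnt inhibitor, read 11.20, 11.69 and 11.25 against 9.94, 10.16 and 10.15 (2.46-fold lower, adjusted p = 0.00113). Both Wnt inhibitors were separated between groups by more than 1 log2 unit at the nearest arrays. Irs1, the adaptor that couples the insulin receptor to its kinases, read 11.03, 11.12 and 11.08 in healthy and 9.67, 9.58 and 10.11 in metastatic ECs (2.45-fold lower, adjusted p = 0.000998). Aldh1a1, which makes retinoic acid and clears aldehydes, read 10.31, 10.30 and 11.10 against 9.54, 9.15 and 9.41 (2.31-fold lower, adjusted p = 0.0117). Healthy array 3 was the high one, and without it the difference of Aldh1a1 was -0.94. Cytl1, a small secreted protein, fell by 1.44 ± 0.14, Olfm2, a secreted olfactomedin, by 1.34 ± 0.12, and the metalloprotease gene Mep1a by 1.47 ± 0.22.

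The 20 genes with the lowest differences ended with Rfpl4 at -1.16, and the next gene in order stood at -1.15. They also held Tppp, which bundles microtubules, at -1.31 ± 0.16, Trim72, a membrane repair protein of muscle, at -1.18 ± 0.12, Hpcal4, a neuronal calcium sensor, at -1.17 ± 0.12, and the sperm protein gene Eqtn at -1.70 ± 0.25. Dpm3, which anchors the enzyme that makes a mannose donor for glycosylation, read 11.39, 11.44 and 11.38 in healthy and 10.48, 9.28 and 10.46 in metastatic ECs. Its low value in metastatic array 2 set the size of the difference, which was -1.33 with and -0.93 without that array. Of the 20 genes, 14 rested on 1 probe set each, the uncharacterized 9530026P05Rik included.

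**Figure D2:**
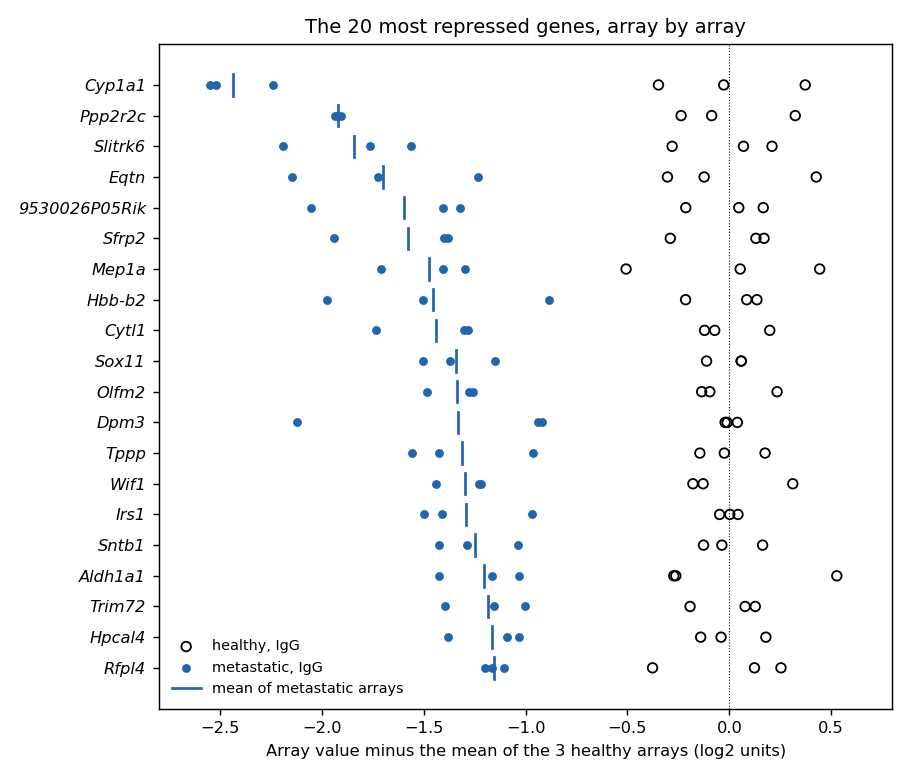
For the 20 genes with the lowest differences among those called, each point is 1 array, plotted as its value minus the mean of the 3 healthy arrays (x axis, log2 units), with healthy arrays as open circles, metastatic arrays as blue points and the metastatic mean as a bar. No metastatic point reaches a healthy one, which was required of these 20 genes. It held for all 630 repressed genes and so adds nothing to their calls. The single far point in the row of Dpm3 is metastatic array 2.

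Genes read by several probe sets allowed a comparison among these. Probe sets of a gene come from the same arrays, and some carry a suffix for probes shared by several transcripts. They are therefore not independent. Among all 34945 probe sets naming 1 gene, 1042 (2.98%) were lower and 1549 (4.43%) higher. Of 352 repressed genes with several probe sets, 273 (77.6%) had all of them below 0, 127 had at least 2 called lower, and 1 had a probe set called higher. For 573 induced genes with several probe sets, 462 (80.6%) had all above 0 and 269 had at least 2 called higher. These counts include the probe set standing for the gene, whose sign the call had fixed. The share of same signs over all genes with several probe sets was not counted. Every probe set was called lower in 52 of 9010 genes (0.577%) and higher in 167 (1.85%).

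The gene with the lowest mean over such probe sets was Npr3, the receptor that clears natriuretic peptides from the blood. The probe set standing for it read 12.69, 13.04 and 12.80 in healthy and 11.61, 12.04 and 12.07 in metastatic ECs, and its 3 probe sets gave differences of -0.94 to -1.57. Sntb1, a syntrophin that ties signaling proteins to the dystrophin complex, read 11.15, 11.44 and 11.24 against 9.99, 9.85 and 10.24, and all 6 of its probe sets were lower, by 0.82 to 1.48. Neither gene overlapped between groups. Fmo2, the flavin monooxygenase of the lung, fell in all 5 probe sets, from -0.42 in the brightest to -1.24, so that the probe set chosen for the gene by brightness gave the smallest change. Adgrg6, an adhesion receptor that senses matrix, fell by 1.07 and 0.94 in its 2 probe sets, and Abi3bp, a matrix protein, by 0.87 and 1.14. Cmklr1, the receptor of the chemoattractant chemerin, fell by 0.92 and 0.96, and Sstr4, a receptor of the inhibitory peptide somatostatin, by 0.74 and 0.89. Cbx7, a Polycomb protein that binds methylated histones, fell in 3 probe sets (-0.46 to -1.10), and Atp13a3, a polyamine transporter, in 3 as well (-0.69 to -1.09). The remaining genes of the 15 lowest were H2bc21, Usp42, Slc5a12, Crispld1, Ctsh and Dnaic1, with mean differences of -0.78 to -1.24.

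Other probe sets did not always follow. Ppp2r2c gave -1.92, -1.12 and 0.06, with the first 2 called. Sox11, a transcription factor of progenitor cells, gave -0.64 to -1.34 in 6 probe sets, of which 5 were called. Hbb-b2, a beta-globin gene with near-identical copies, gave -1.45 and 0.16, and Mep1a gave -1.47 and -0.38. Npas2, a clock factor, gave -1.10 and -0.14. For these last 3 genes the second probe set did not pass, and whether the probe sets read different transcripts was not tested.

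**Figure D3:**
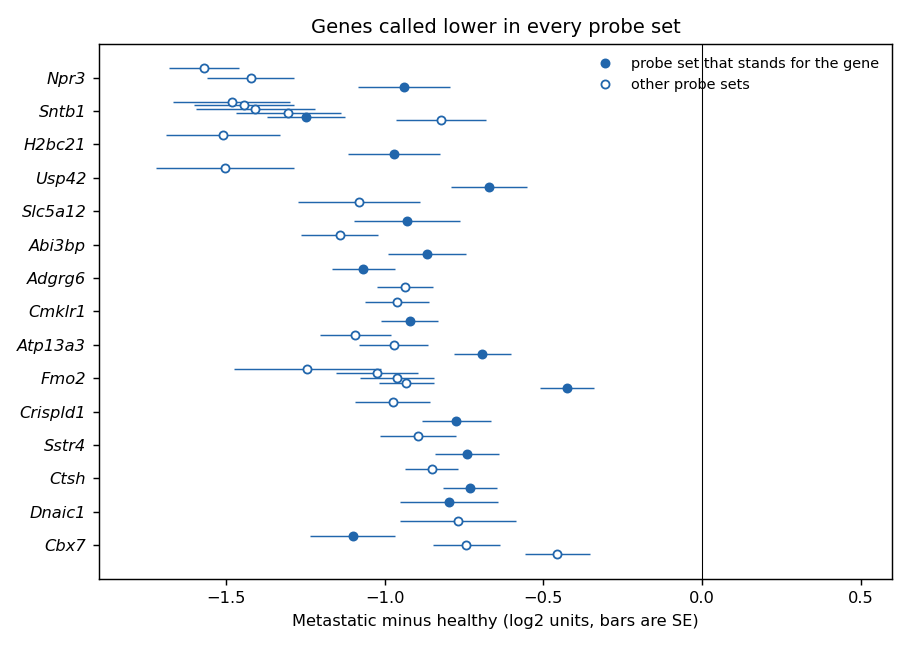
For the 15 genes with the lowest mean difference among those called lower in every probe set, each point is 1 probe set with its metastatic minus healthy difference (x axis, log2 units) and standard error, filled where it stands for the gene elsewhere in the text. All 6 probe sets of Sntb1 and all 5 of Fmo2 lie below 0, between -0.82 and -1.48 and between -0.42 and -1.24.

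Single detoxifying enzymes of several families were repressed. Of 197 measured cytochrome P450s, aldo-keto reductases, aldehyde and alcohol dehydrogenases, glutathione transferases, flavin monooxygenases, epoxide hydrolases, carboxylesterases and related oxidases, 22 (11.2%) were lower and 5 (2.5%) higher, beside 3.46% and 5.55% over all genes. Their median difference was -0.029, since 170 of the 197 did not pass. The oxidases and hydrolases among them were added as a list after their values were seen, and genes found only in that list gave 9 of the 22. Without them, 13 of 165 enzymes (7.9%) were lower and 4 (2.4%) higher, with a median of -0.023. The repressed count of the 197 was 12 without healthy array 2 and 15 to 21 without any other array, with the 15 reached without metastatic array 1. The induced count was 3 without healthy array 2 or without metastatic array 1 or 2. At the thresholds of the study's methods 5 enzymes were lower and 2 higher.

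Among oxidizing enzymes, Fmo5 fell by 0.60 ± 0.09, Fmo4 by 0.59 ± 0.10, and the aldehyde oxidases Aox3 and Aox1 by 0.66 ± 0.13 and 0.52 ± 0.11. Both epoxide hydrolases that open reactive or signaling epoxides fell, and Ephx1 read 12.08 to 12.11 in healthy and 11.30 to 11.58 in metastatic ECs (-0.61 ± 0.10). Ephx2 read 8.18 to 8.36 against 7.43 to 7.83 (-0.63 ± 0.11). Among other P450 genes, Cyp2j9, Cyp2d22 and Cyp4f14 fell by 0.49 ± 0.08, 0.44 ± 0.11 and 0.42 ± 0.11, while Cyp7b1, which hydroxylates oxysterols, rose by 0.36 ± 0.08.

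Of 93 aldo-keto reductases, aldehyde and alcohol dehydrogenases and glutathione transferases, 9 were lower, 3 higher and 81 not called, with a median of 0.01. Among glutathione transferases, Gstm1 read 12.38 to 12.47 in healthy and 11.79 to 11.94 in metastatic ECs, Gstp1 12.14 to 12.21 against 11.64 to 11.75, and Gstt1 9.78 to 9.92 against 9.21 to 9.43. Gsta3, Gstt3 and Gstk1 fell by 0.69 ± 0.16, 0.45 ± 0.09 and 0.38 ± 0.09. Transferases of the Gstm family are close copies, so their probe sets may share signal, and 2 other probe sets of Gstm1 gave -0.11 and 0.00. The second probe set of Gsta3 gave 0.23. The carboxylesterase Ces2g read 11.25, 11.17 and 11.40 in healthy and 9.91, 10.40 and 10.32 in metastatic ECs (2.08-fold lower, adjusted p = 0.00257). Inmt, a methyltransferase of amines that fibroblasts express strongly too, read 12.09, 12.49 and 12.84 against 11.58, 11.08 and 11.58 (2.09-fold lower, adjusted p = 0.0159). Alcohol dehydrogenase Adh1 fell by 0.48 ± 0.10 and the reductase Akr1c14 by 0.82 ± 0.11.

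The 5 enzymes that went the other way were led by Akr1b8, a reductase of lipid aldehydes, at 7.40 to 7.67 in healthy and 10.05 to 10.55 in metastatic ECs (2.83 ± 0.14). Aldh1a2 rose by 1.26 ± 0.18, the proline synthesis enzyme Aldh18a1 by 0.69 ± 0.10 and the lactonase Pon3 by 0.43 ± 0.10. Within the aldehyde dehydrogenases and aldo-keto reductases, then, single genes moved far apart in both directions.

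**Figure D4:**
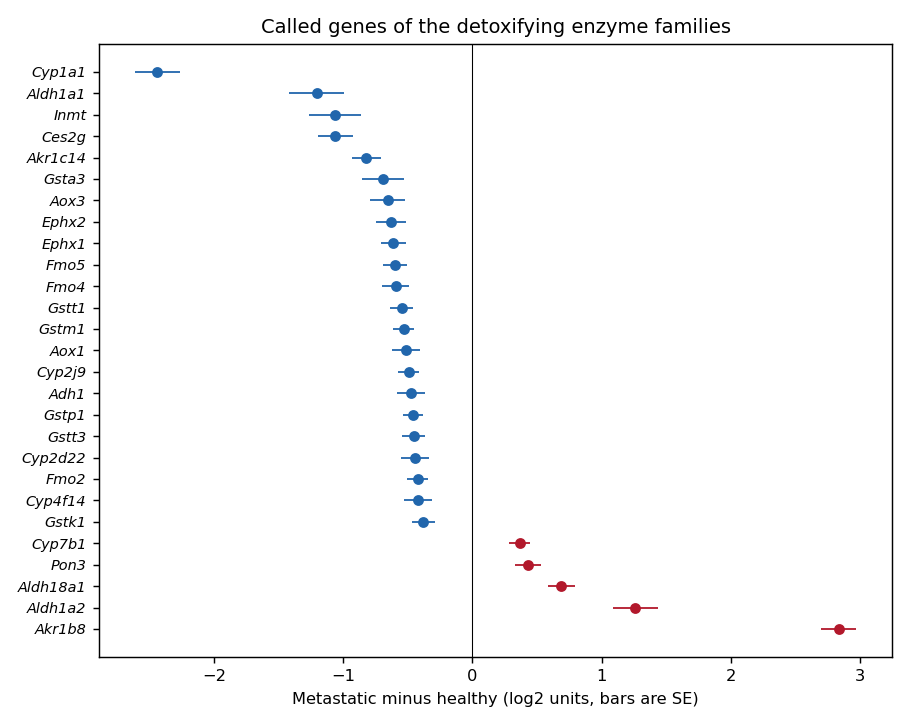
Points are metastatic minus healthy differences (x axis, log2 units) with standard errors (3 arrays per group) for the 27 called genes among 197 detoxifying enzymes, in blue for the 22 that fell and in red for the 5 that rose. Apart from Cyp1a1 at -2.44, the repressed enzymes lie between -0.38 and -1.21, and Akr1b8 stands alone at 2.83.

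Cyp1a1 is the textbook target of the aryl hydrocarbon receptor, a ligand-activated transcription factor that binds DNA with Arnt at sites with the core GCGTG. Of 10 measured genes of this pathway, 2 were lower and none higher, beside 3.46% lower and 5.55% higher over all genes. The median difference of the pathway genes was -0.27, and 8 of the 10 did not pass. The other repressed gene was Ahrr, the repressor that the receptor induces to limit itself, at 7.0, 7.14 and 7.18 in healthy and 6.57, 6.64 and 6.36 in metastatic ECs (-0.59 ± 0.10, adjusted p = 0.00897). The call of Ahrr was lost when all 9 arrays were fitted together, and the single probe set of Cyp1a1 carries a suffix for probes shared by several transcripts. Nqo1, Tiparp and Cyp1b1, which the receptor also induces, stood at -0.35, -0.23 and -0.35 and did not pass (adjusted p = 0.0822, 0.179 and 0.215). The receptor gene Ahr stood at -0.12 ± 0.08 and Arnt at -0.12 ± 0.11, and neither passed. The 250 bases before the first listed start of both repressed genes are shown to place letter matches to GCGTG. Binding of the receptor at a match was not measured, and bases further upstream were not searched. The same stretches of Cyp1b1 and Tiparp, which did not pass, also hold 1 match each. They come from RefSeq (GRCm38.p6), read in the direction of the gene, with each GCGTG on the printed strand in capitals. For Cyp1a1 the stretch is chr9:57697363-57697612 on the plus strand, and its only match begins 54 bases before the start. For Ahrr it is chr13:74292332-74292581 on the minus strand, with 3 matches that begin 107, 82 and 27 bases before the start.
Cyp1a1: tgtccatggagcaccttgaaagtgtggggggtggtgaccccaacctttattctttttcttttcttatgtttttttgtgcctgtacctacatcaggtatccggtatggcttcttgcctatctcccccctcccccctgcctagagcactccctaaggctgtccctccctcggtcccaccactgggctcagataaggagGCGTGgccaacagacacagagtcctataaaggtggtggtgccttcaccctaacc
Ahrr: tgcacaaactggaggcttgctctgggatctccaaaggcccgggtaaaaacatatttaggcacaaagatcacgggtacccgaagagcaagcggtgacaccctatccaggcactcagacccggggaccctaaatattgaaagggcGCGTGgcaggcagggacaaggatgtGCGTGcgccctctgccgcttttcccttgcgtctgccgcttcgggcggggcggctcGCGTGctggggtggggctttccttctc

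A GCGTG is common in such stretches. Searched on both strands of the 250 bases before any listed start, it was present in 6112 of 14367 tested genes with a listed promoter (42.5%), in 226 of 497 repressed genes (45.5%) and in 371 of 793 induced genes (46.8%). The repressed genes differed little from all genes in the other motifs searched. The core of interferon-stimulated response elements was present in 3.2% of repressed, 6.6% of induced and 3.1% of all genes. TGACTCA, the AP-1 site, was present in 4.4%, 6.8% and 4.7%, and the TATA box TATAAA in 8.9%, 9.5% and 10.5%. The E-box CACGTG, which shares the letters CGTG with GCGTG, was present in 10.3%, 7.9% and 8.7%. The antiviral gene Rsad2, which read 9.22 to 9.36 in healthy and 12.27 to 12.58 in metastatic ECs, is shown as an induced gene with the interferon pattern. The same search found no match before the listed starts of Ifi202b, Ifit2 and Irf7, so the stretch was chosen for its match. Its stretch is chr12:26456453-26456702 on the minus strand, and the capitals are the pattern read on the opposite strand.
Rsad2: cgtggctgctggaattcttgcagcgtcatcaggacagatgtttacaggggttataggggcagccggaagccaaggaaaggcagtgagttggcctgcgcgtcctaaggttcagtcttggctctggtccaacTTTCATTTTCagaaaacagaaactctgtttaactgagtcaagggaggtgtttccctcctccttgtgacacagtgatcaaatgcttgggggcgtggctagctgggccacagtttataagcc

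Genes of retinoic acid, a vitamin A derivative that keeps vessels quiescent through nuclear receptors, were split. Of 26 measured, in a list added after the values were seen, 3 (11.5%) were lower and 2 (7.7%) higher. Over all genes these shares were 3.46% and 5.55%. Besides Aldh1a1, Dhrs3, which turns retinaldehyde back into retinol, read 11.11, 11.28 and 11.15 in healthy and 10.65, 10.15 and 10.61 in metastatic ECs (-0.71 ± 0.14). The receptor gene Rarb, itself a retinoic acid target, read 8.49, 8.13 and 8.43 against 7.89, 7.87 and 7.84 (-0.48 ± 0.11). Conversely, the other retinaldehyde dehydrogenase, Aldh1a2, read 6.92 to 7.72 in healthy and 8.57 to 8.58 in metastatic ECs, and Rarres1 rose by 0.60 ± 0.10. Among all 40 measured nuclear receptors 4 (10.0%) were lower and 3 (7.5%) higher. Esr2 and Pgr, receptors of estrogen and progesterone, fell by 0.61 ± 0.12 and 0.47 ± 0.12, and the thyroid hormone receptor Thra by 0.46 ± 0.10. Nr5a2 rose by 1.44 ± 0.15, and in all 4 of its probe sets. The repressed nuclear receptor count was 1 without healthy array 1 or 2 and 0 without healthy array 3 or metastatic array 1. The retinoid count was 1 without healthy array 3.

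Single transcription factors of development were repressed. Of 105 measured Hox, forkhead, Krüppel-like and Sox genes, families pooled with their calls known, 10 (9.5%) were lower and none was higher, beside 3.46% and 5.55% over all genes. Of 12 T-box factors, another developmental family, none was lower and 1 higher, namely Tbx5 (0.49 ± 0.08, adjusted p = 0.00591). Leaving out healthy array 2 gave 3 such calls, metastatic array 1 gave 5, healthy arrays 1 and 3 gave 6 each, metastatic array 2 gave 7, and without metastatic array 3 there were 9 lower and 1 higher. Sox11 led them, at 10.08, 10.08 and 9.91 in healthy and 8.65, 8.52 and 8.87 in metastatic ECs (2.54-fold lower, adjusted p = 0.000313). Of 16 Krüppel-like factors 3 fell. Klf12 fell by 0.71 ± 0.13, and 4 of its 5 probe sets were called. Klf9, which hormones of the adrenal cortex induce, read 12.88 to 13.03 in healthy and 12.50 to 12.54 in metastatic ECs. It fell by 0.41 ± 0.08 in its brightest probe set and by 0.39 to 0.91 in the 6 called of its 7. Of 37 forkhead genes, Foxc2 and Foxc1, which shape arteries and lymphatics, fell by 0.66 ± 0.12 and 0.46 ± 0.10, and Foxn3 by 0.33 ± 0.07. Of 33 Hox genes, which hold positional identity, Hoxb6, Hoxa2 and Hoxa3 fell by 0.48 ± 0.08, 0.46 ± 0.10 and 0.30 ± 0.08. With each probe set as a feature, no probe set of Hoxa3 passed, at -0.16 to -0.32. The other probe sets of Foxn3 (-0.18 to -0.335) and Foxc1 (-0.37) did not pass either. The arterial factor Hey2 read 8.36, 8.92 and 8.59 against 7.76, 7.69 and 7.53 (-0.96 ± 0.14), one of 3 repressed among 13 arterial markers, together with the protease Htra1 (-0.81 ± 0.08) and the kinase Bmx (-0.66 ± 0.09). Of 10 venous markers 4 were higher and none lower, namely Ackr1 (1.5 ± 0.14), Nr2f2 (1.10 ± 0.08), Nrp2 (0.82 ± 0.10) and Selp (0.66 ± 0.08). The other probe sets of Nr2f2 gave -0.43 to 0.53, and none of them passed. Most members of both lists moved little. The venous median was 0.09 with 5 of 10 markers below 0, and the arterial median 0.01 with 6 of 13 below 0.

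Receptors for circulating and locally released mediators held calls in both directions. Of 90 measured peptide, amine and lipid receptors, a list added after the values were seen, 8 were lower and 8 higher. This was 8.9% each, beside 3.46% lower and 5.55% higher over all genes. Lpar3, a receptor of lysophosphatidic acid, read 8.56, 8.37 and 8.38 in healthy and 7.32, 7.66 and 7.68 in metastatic ECs (-0.88 ± 0.12). Besides Cmklr1 and Sstr4, the second somatostatin receptor Sstr1 fell by 0.80 ± 0.17, Vipr2, a receptor of the vasodilator VIP, by 0.74 ± 0.16, and the angiotensin peptide receptor Mas1 by 0.51 ± 0.11. Ednrb, the endothelin receptor of aerocyte capillaries, read 12.50 to 12.61 against 12.02 to 12.24 and fell in all 3 probe sets (-0.44 to -0.65), and Gipr fell by 0.37 ± 0.08. The nucleotide receptors P2ry6 and P2ry2 rose by 1.09 ± 0.13 and 0.69 ± 0.14, the thrombin receptor F2r and its relatives F2rl2 and F2rl3 by 0.36 ± 0.08, 1.10 ± 0.21 and 0.72 ± 0.13, and the sphingolipid receptor S1pr2 and the serotonin receptors Htr2b and Htr5b by 0.40 to 0.48. Of 20 chemokine receptors, which stand in a list of their own, 3 were higher (Ackr1, Ccr1 at 0.92 ± 0.16 and Cx3cr1 at 0.67 ± 0.12) and 1 lower (Ccrl2). Whether macrophages and monocytes, whose markers rose, contributed to the induced receptors of either list was not tested. With healthy array 1 left out, 5 of the 90 receptors were lower and 2 higher, with healthy array 2 left out 3 and 3, and with healthy array 3 left out 4 and 6. With metastatic arrays 1, 2 and 3 left out the counts were 5 and 4, 4 and 6, and 8 and 5.

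Single genes of second messenger signaling in the vessel wall were called. Of 21 measured genes of natriuretic peptide and cGMP signaling, in a list added after the values were seen, 3 (14.3%) were lower and none higher. Over all genes the shares were 3.46% lower and 5.55% higher. Next to Npr3, Pde3a, the phosphodiesterase that cGMP inhibits, read 11.53, 11.56 and 11.39 in healthy and 10.51, 10.42 and 10.53 in metastatic ECs (2.01-fold lower, adjusted p = 0.000356). Prkg1, the kinase that cGMP activates, read 10.46, 10.65 and 10.45 against 9.86, 9.77 and 9.85 (1.62-fold lower, adjusted p = 0.00229). Groups did not overlap in either gene, and the second probe set of Prkg1 gave -0.35 without passing. Of 34 cyclases and phosphodiesterases, 3 (8.8%) were lower, 2 (5.9%) higher and 29 not called, with a median of -0.03. Besides Pde3a, Pde8b and Pde7b fell (-0.62 ± 0.13 and -0.54 ± 0.12), while Pde4b and Pde1b rose by 0.34 ± 0.08 and 0.32 ± 0.08. The other probe sets of Pde7b gave -0.15 and -0.04 and did not pass. In insulin signaling, a list added after the values were seen, 3 of 24 measured genes (12.5%) were lower and 2 (8.3%) higher. Irs1 fell together with the inhibitory adaptor Grb14 (-0.63 ± 0.11), whereas Grb10 and the phosphatase gene Ptpn1 rose by 0.37 ± 0.08 and 0.32 ± 0.07. Neither induced call was made without any one of the healthy arrays or metastatic array 1 or 3. Irs2 and the receptor gene Insr stood at 0.01 ± 0.11 and 0.09 ± 0.08.

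Matrix genes of the elastic fiber moved in both directions. Of 21 measured, in a list added after the values were seen, 5 (23.8%) were lower and 3 (14.3%) higher. Over all genes these shares were 3.46% and 5.55%. Ltbp4, which holds latent TGF-beta and guides elastin assembly, read 11.22, 11.36 and 11.25 in healthy and 10.45, 10.28 and 10.19 in metastatic ECs (-0.97 ± 0.09, adjusted p = 0.000693). Ltbp1 read 11.70, 11.75 and 11.77 against 11.21, 11.10 and 11.13 (-0.59 ± 0.08). The third binder, Ltbp2, went the other way, at 7.73 to 7.82 in healthy and 8.83 to 9.10 in metastatic ECs (1.15 ± 0.10). Adamtsl3, Efemp1 and Adamtsl4 fell by 0.66 ± 0.10, 0.64 ± 0.15 and 0.35 ± 0.08, while Adamtsl2 and Emilin1 rose by 0.60 ± 0.10 and 0.56 ± 0.10. The repressed count was 3 without any one healthy array or metastatic array 2. Elastin itself (Eln) stood at -0.01 ± 0.09 and its organizer Fbln5 at 0.14 ± 0.09, and neither passed. Of 21 measured heparan sulfate genes 15 did not pass, and 3 (14.3%) were called in each direction. The 3 repressed ones encode enzymes that modify the chain, namely Hs3st1 (-0.70 ± 0.11), Sulf1 (-0.54 ± 0.09) and Glce (-0.51 ± 0.09). The 3 induced ones encode the core proteins Hspg2, Sdc4 and Agrn (0.42 to 0.63).

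Genes of Wnt and BMP signaling and inhibitors of the cell cycle are given briefly, from lists added after the values were seen. Besides Sfrp2 and Wif1, the Wnt feedback genes Axin2 and Nkd1 fell by 0.48 ± 0.10 and 0.34 ± 0.07. Porcn and Wls, which make and release Wnt ligands, fell by 0.64 ± 0.12 and 0.43 ± 0.09. The second probe set of Axin2 gave 0.05 and the other probe sets of Wls -0.30 to 0.055, and none of them passed. Of 25 Wnt inhibitors, release and feedback genes, 9 (36.0%) were lower and none higher, beside 3.46% and 5.55% over all genes. The lower count was 3 without healthy array 2 or 3, 4 without metastatic array 1, and 5 without healthy array 1 or metastatic array 2. BMP genes Id3, Smad6, Smad9 and Bmp6 fell by 0.34 to 0.44 while Smad1 and Smad5 rose by 0.68 ± 0.08 and 0.42 ± 0.08. Bmper, a BMP-binding protein, rose by 0.83 ± 0.18, the largest difference in the list. Of 21 BMP genes 6 (28.6%) were lower and 3 (14.3%) higher, beside 3.46% and 5.55% over all genes, and the lower count was 1 without any one healthy array or metastatic array 1 or 2. Id2 fell by 0.64 ± 0.11 in its brightest probe set alone, and Id1 stood at -0.06 ± 0.08 and did not pass. Of 18 cell cycle brakes 4 (22.2%) were lower and 1 (5.6%) higher, beside the same 3.46% and 5.55%. The inhibitors of cyclin-dependent kinases Cdkn2b and Cdkn1c read 10.78 to 10.84 and 10.21 to 10.60 in healthy and 9.45 to 9.93 and 9.38 to 9.71 in metastatic ECs. Cdkn2c, another such inhibitor, rose by 0.42 ± 0.08. Cdkn1a and Cdkn1b stood at 0.07 ± 0.07 and -0.16 ± 0.10, and neither passed.

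Of 57 functional classes, 19 held more repressed than induced genes, 29 held more induced ones, 7 held equal numbers and 2 had no call. Classes known from nerve and sperm cells lay near the share of all genes called lower. Of 102 neuronal adhesion and synapse genes 5 (4.9%) were lower and 1 (1.0%) higher, with Flrt2, a guidance receptor, down by 0.74 ± 0.13 in the probe set used and lower in all 3. Shank3, a postsynaptic scaffold, read 11.31 in each of the 3 healthy arrays and 10.93, 10.71 and 10.99 in the metastatic ones (-0.43 ± 0.09). Of 31 sperm and meiosis genes Eqtn alone was called. Potassium channel genes (84 measured) had 4 (4.8%) lower, led by Kcnmb4 at -0.70 ± 0.15, and 3 higher, led by Kcnj15 at 0.97 ± 0.10 and Kcnj2 at 0.92 ± 0.12.

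Counts of these small numbers were lower without single arrays, with no potassium channel called lower without healthy array 3 and 1 adhesion gene without healthy array 2.

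Large transport and DNA-binding families stayed near the background share. Of 362 solute carriers 14 (3.9%) were lower and 18 (5.0%) higher, with a median of 0.00. Slc5a12, which imports lactate with sodium, fell by 0.93 ± 0.17, and the organic anion carriers Slco5a1 and Slco1c1 by 0.90 ± 0.13 and 0.66 ± 0.15, although the second probe set of Slco5a1 gave 0.04. Slc24a3, a sodium and calcium exchanger, rose by 1.42 ± 0.10 and Slc43a1, an amino acid carrier, by 1.19 ± 0.12. The repressed carriers numbered 4 without metastatic array 1, 5 without healthy array 2, and 6 without healthy array 3 or metastatic array 2. The efflux pumps Abcb1a and Abcb4 fell by 0.36 ± 0.08 and 0.47 ± 0.11, and the cholesterol exporter Abca1 rose by 1.15 ± 0.11. Zfp zinc finger genes (329) had 2.1% lower and 1.5% higher, both under the share of all genes. Receptors of smell and taste (78) had 1 lower and none higher, and keratins (86) had none lower and 1 higher. Enzymes of the citric acid cycle (18) and the translocation machinery of the endoplasmic reticulum (20) had no call. At an unadjusted p under 0.05 over all genes, 1973 were lower and 2270 higher.

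**Figure D5:**
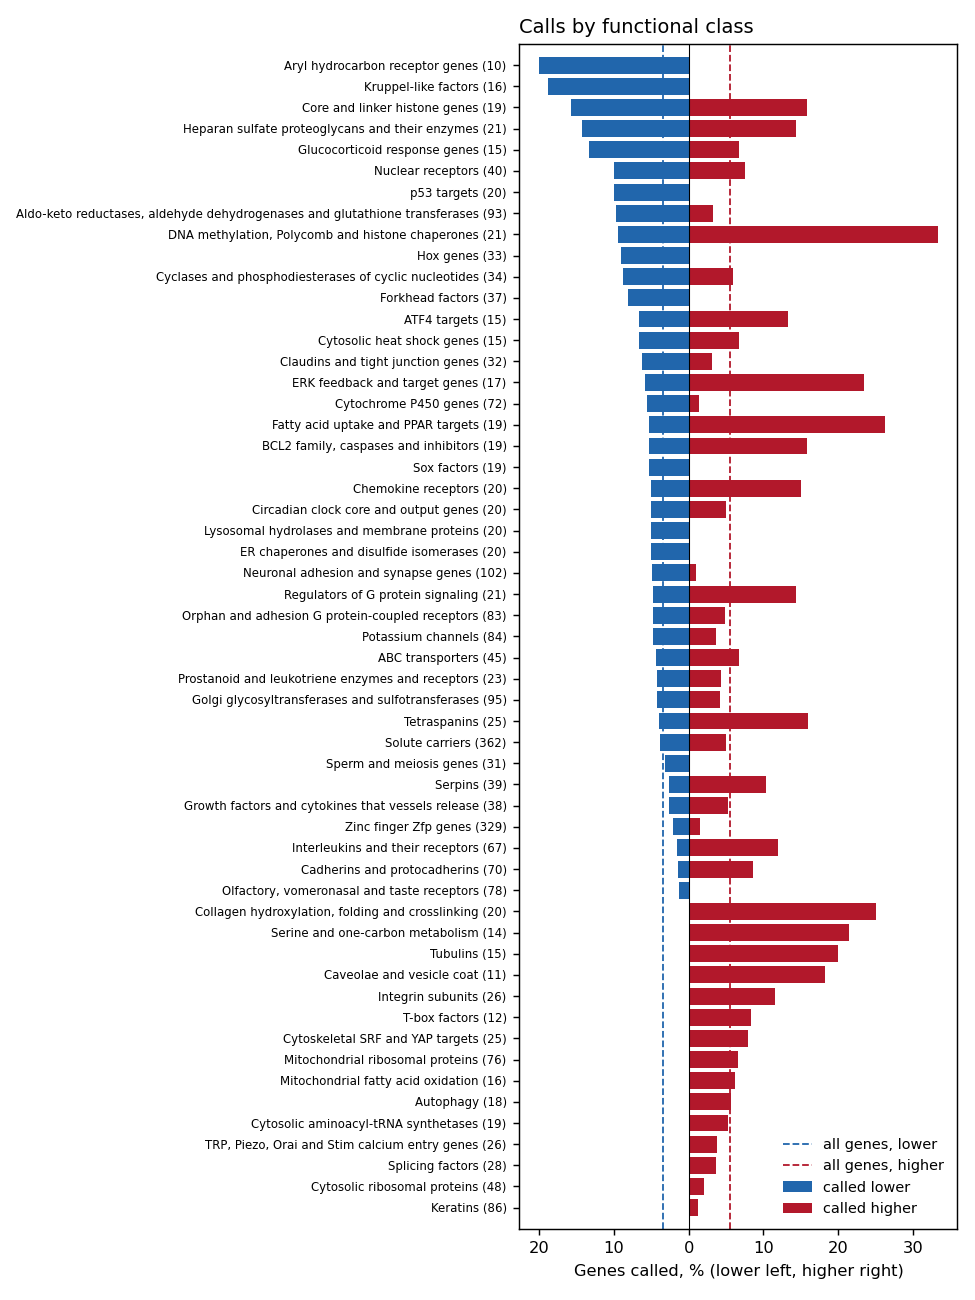
Bars give the share of measured genes called lower (blue, to the left) and higher (red, to the right) in each of 55 functional classes with at least 1 call, with the number of genes measured in brackets and dashed lines at the shares over all genes (3.46% and 5.55%). Classes at the top, such as Krüppel-like factors at 18.8%, hold small numbers of genes, and large classes such as solute carriers lie near the dashed lines.

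Classes in which induced genes prevailed lay outside cell division and interferon as well. Of 19 genes of fatty acid uptake and PPAR targets, 5 (26.3%) were higher and 1 (5.3%) lower, beside 5.55% and 3.46% over all genes. The fatty acid chaperones went opposite ways. Fabp5 read 9.60 to 9.91 in healthy and 10.72 to 11.39 in metastatic ECs (1.28 ± 0.16), and Fabp4 read 11.56, 12.06 and 11.84 against 11.50, 10.77 and 10.80 (-0.80 ± 0.21, adjusted p = 0.0491). The nearest arrays of Fabp4 differed by little, and its call was lost without any one array other than metastatic array 1. The lipoprotein receptor Scarb1 and lipase Lpl rose by 0.65 ± 0.08 and 0.53 ± 0.12. Of 14 genes of serine and one-carbon metabolism 3 (21.4%) rose, namely Psat1 (1.40 ± 0.16), Mthfd2 (0.71 ± 0.15) and Ahcy (0.55 ± 0.09). Of 20 genes listed for collagen hydroxylation, folding and crosslinking 5 were higher and none lower, among them Plod1 (0.65 ± 0.09), the chaperone Serpinh1 (0.44 ± 0.07) and P4ha1 (0.40 ± 0.09). Leprotl1 (0.52 ± 0.09), which stands in that list, acts in receptor trafficking instead.

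Induced genes of further classes are given with their counts, beside 5.55% higher and 3.46% lower over all genes. Feedback genes of ERK, the kinase downstream of growth factor receptors, had 4 of 17 (23.5%) higher and 1 (5.9%) lower. Spry1, Etv5, Spry4 and Dusp6 rose by 0.37 to 0.69, whereas Spry2 fell by 0.50 ± 0.12. Of 76 mitochondrial ribosomal proteins 5 (6.6%) were higher (Mrpl51 at 0.48 ± 0.10), close to the 5.55% over all genes, and none was lower. The higher count was 0 without healthy array 2 or metastatic array 1. Interleukins and their receptors (67) had 8 (11.9%) higher, with Il7r at 0.93 ± 0.10 and Il1b at 0.81 ± 0.19. The 1 lower (1.5%) was Il1a, at -0.51 ± 0.11. Macrophage and monocyte markers rose too (12 of 19), and their cells' part in the interleukin calls was not tested. Integrin subunits Itgb3, Itgb2 and Itga5 rose by 1.10 ± 0.14, 0.77 ± 0.16 and 0.52 ± 0.08, of which Itgb2 belongs to leukocytes. Fkbp5, a chaperone that glucocorticoids induce, rose by 1.55 ± 0.11, while Klf9 and Cdkn1c of the same list of 15 fell.

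The sort genes and marker lists were read beside these results. Ptprc (CD45) read 8.24 to 9.24 in healthy and 9.25 to 9.33 in metastatic arrays (0.52 ± 0.21, adjusted p = 0.187), and Itgam (CD11b) 6.47 to 6.91 against 6.73 to 7.24. Epcam (CD326) was at 7.55 to 7.70 and 7.49 to 7.90. Pdgfra (CD140a) read 9.01 to 10.44 in healthy and 8.80 to 9.65 in metastatic ECs, while Pdgfrb (CD140b) read 7.34 to 8.33 against 8.85 to 9.35 and was called higher (adjusted p = 0.0191). Of 16 fibroblast markers 3 collagens rose, Inmt fell and 12 did not pass, and their mean level was 9.09 to 9.86 in healthy and 9.46 to 9.79 in metastatic arrays. Of 16 epithelial markers 3 were higher and none lower, namely the surfactant protein genes Sftpd (1.18 ± 0.27) and Sftpb (0.92 ± 0.20) and the mucin Muc1 (0.94 ± 0.23), and their mean level lay at 8.61 to 9.55 in healthy and 9.10 to 9.58 in metastatic arrays. Slc34a2, the phosphate carrier of alveolar cells, rose by 1.31 ± 0.30. Motile cilia genes of airway cells, a list of 20 added after the values were seen, had 4 lower and 4 higher. The lower ones held Tppp3 at -0.80 ± 0.08 and Wdr38 at -0.95 ± 0.14, whose second probe set gave 0.39 without passing. The higher ones held Mlf1 at 0.94 ± 0.09 and Dnah11 at 0.75 ± 0.10. Lymphoid markers (10) had no call. Whether cells outside the sort contributed to any repressed or induced gene was not tested.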

How the data were processed

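RNA of sorted lung ECs had been amplified and hybridized to Affymetrix mouse arrays. The deposited values are log2 intensities, which the authors obtained by RMA in Chipster, and they were used as they are. Probe sets naming 1 gene (34945 of 45101, control probe sets left out) gave 18193 genes, each represented by its probe set of highest mean over 9 arrays. No filter on dim genes was set. A linear model without a block was fitted to the 6 IgG arrays by limma 3.58.1 under R 4.3.3, with moderated variances. A call required an adjusted p under 0.05 by the method of Benjamini and Hochberg, and each SE belongs to the fitted difference. The fit was tested on simulated data.

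Named genes were the 20 lowest and 8 highest called genes without overlap between groups, the 15 lowest by mean among genes called lower in every probe set, up to 4 called members per direction of each list (or 2 of smallest p) and the sort genes. Others were chosen after their values were seen. The lists (74, and 10 added), the genes and the comparison were chosen with earlier results of these data known. Lists are described by counts and medians without a set test. Scan dates were not given in the sources used here. Promoters were matched by gene ID. Plots came from matplotlib 3.10.9 under Python 3.11.15, and tables were joined with pandas 2.3.3.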

Additional observations from a re-analysis of the deposited data

How the results depend on the processing

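The 630 repressed and 1010 induced genes became 956 and 1263 with a variance trend and robust settings, and 107 and 400 at the thresholds of the study's methods (log2 difference over 0.75, p under 0.05 and adjusted p under 0.25). Leaving out 1 array at a time gave 266 to 587 repressed and 603 to 891 induced genes, with the arrays that moved a count most named beside the counts above, and 191 repressed and 503 induced genes were called in the full fit and in every fit of this kind. Both counts stayed within 1.5 times when all 9 arrays were fitted together, dim genes were removed, probe sets were averaged or those with a suffix for probes shared by several transcripts dropped, arrays were scaled otherwise, or arrays were weighted. With each probe set as a feature, 2591 were called, against 1640 genes. With the replicate number as a replicate block, 436 genes were lower and 740 higher, of which 385 and 712 were called without it, but same-numbered arrays of the groups did not deviate together (correlations of -0.015 to 0.013), so the numbers do not pair the arrays. Of the 20 most repressed genes, 19 kept their call in every leave-one-out fit, and Dpm3 lost it without any one of the healthy arrays. Without probe sets of such a suffix, Cfap43, Id2 and Syt6 turned to 0.054, 0.095 and 0.007. Detection calls were not used here, so which dim probe sets lie above background is not known.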
